A study of Homo sapiens with 6 samples.

Results

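The 10 genes described here are 5 cadherins, CDH1, CDH2, CDH3, CDH11 and CDH13, and 5 transcription factors of the epithelial-mesenchymal transition (EMT), SNAI1, SNAI2, ZEB1, ZEB2 and TWIST1. They were chosen by symbol, entries sharing a symbol being summed, and are 10 of the 19437 genes in the deposited table. Poly(A) RNA was sequenced from SCC9, an established human line derived from a squamous cell carcinoma of the tongue. Cells of 3 libraries received an adenovirus carrying TEADi, a protein inhibitor of TEAD, the family of DNA-binding factors through which YAP and TAZ act. Cells of the other 3 libraries received an adenovirus carrying green fluorescent protein (GFP), and served as the control. All cells were grown in medium with serum and hydrocortisone, were transduced at a multiplicity of infection of 25, and were harvested 48 h later. A single cell line was used, cells in both groups carried an adenovirus, and an untransduced group was not analysed here. The labels call the libraries of a group A, B and C and do not say whether they came from separate cultures, and the p-values below measure only how much these libraries vary, possibly for technical reasons.

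Cadherins are membrane proteins that hold neighbouring cells together through calcium-dependent contacts. E-cadherin, encoded by CDH1, is the cadherin of epithelial junctions, and its loss with a gain of N-cadherin, encoded by CDH2, is a known mark of EMT. The SNAIL, ZEB and TWIST families of transcription factors drive EMT, and SNAIL and ZEB proteins repress CDH1 by binding E-box motifs in its promoter. In squamous carcinoma these factors are studied for their part in invasion.

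Promoter windows of 250 bases before a transcription start were read from RefSeq (GRCh38.p14) and were held for 3 of the 10 genes, with 2 windows for CDH2, 7 for ZEB1 and 1 for ZEB2. Both strands were searched for GGAATG, the core motif bound by TEAD factors, and for CAGGTG, an E-box bound by SNAIL and ZEB proteins. They were also searched for TGANTCA, a loose form of the motif bound by AP-1, a frequent partner of TEAD, with any middle base. GGAATG was found in 0 of the 10 windows and in 11.9% of 35116 windows of the same length across all genes. CAGGTG was found in 2 of the 10 windows, against 17.5% of all windows, and TGANTCA in 1 of the 10, against 6.57% of all. A match is a description of the letters and not a site of binding, and the absence of a match says only that the letters are not in the window. The 2 windows below are shown because they hold such letters. The window before the downstream of the 2 starts of CDH2 holds TGAATCA, which matches only the loose pattern with any middle base. The ZEB1 window shown, before its most upstream start, holds 1 match to the E-box. The match is in capitals, and the motifs do not overlap another match.
CDH2, chr18:28036642-28036891, minus strand, TGANTCA match beginning 102 bases before the start: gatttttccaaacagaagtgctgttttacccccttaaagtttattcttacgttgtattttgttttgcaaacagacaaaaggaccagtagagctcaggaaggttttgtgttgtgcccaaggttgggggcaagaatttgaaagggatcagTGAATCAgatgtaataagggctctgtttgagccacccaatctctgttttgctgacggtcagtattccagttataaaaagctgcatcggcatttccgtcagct
ZEB1, chr10:31318167-31318416, plus strand, CAGGTG match beginning 57 bases before the start: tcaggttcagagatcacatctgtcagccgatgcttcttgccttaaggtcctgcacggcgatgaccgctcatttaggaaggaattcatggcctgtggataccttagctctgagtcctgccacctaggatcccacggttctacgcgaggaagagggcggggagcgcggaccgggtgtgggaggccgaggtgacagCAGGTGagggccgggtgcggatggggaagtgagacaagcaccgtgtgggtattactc

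The 6 libraries summed to between 827124 and 915558 CPM, read counts relative to library size after trimmed-mean (TMM) scaling. The deposited values were never 0, the smallest value of each library standing in for it, so levels near that value are also given as multiples of it. Since 1 multiple stands for 0, multiples are not numbers of reads, and ratios to low genes carry this offset. Of the 10 genes, 6 reached at least 1 CPM in at least 3 libraries and were tested, and CDH1, CDH3, CDH11 and SNAI1 did not. Of the epithelial markers, KRT8 and KRT18, keratins of simple epithelia, were present in every library, with KRT8 at 101 ± 4.36 CPM in TEADi cells and 207 ± 20.2 CPM in GFP cells (SD, n = 3 each). KRT5 and KRT14, keratins of basal squamous epithelium, lay at or under 0.302 CPM in TEADi libraries. In GFP libraries A to C, KRT5 had 21.7, 17.2 and 0.414 CPM, and KRT14 had 3.57, 1.52 and 0.0690 CPM. Markers of other cell types summed to 10.2 to 11.7 CPM in TEADi libraries and 7.20 to 7.98 CPM in GFP libraries for endothelium, with VWF at or under 3 multiples of the smallest value in all 6. Nearly all of this sum was TIE1, and 3 of the 5 endothelial markers looked at were in the table. The melanocyte markers, of which MITF and PMEL alone were in the table, summed to 3.38 to 4.23 CPM in TEADi libraries and 18.5 to 19.8 CPM in GFP libraries. Most of this was MITF, with means of 3.21 CPM in TEADi cells and 18.5 CPM in GFP cells. PMEL averaged 0.573 CPM in TEADi cells and 0.466 CPM in GFP cells. The immune markers, of which CD68 alone was in the table, summed to 712 to 784 CPM in TEADi libraries and 280.5 to 286 CPM in GFP libraries.

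CDH2 and SNAI2 fell and CDH13 rose in TEADi cells, while ZEB1, ZEB2 and TWIST1 were not called. A gene was called when its Benjamini-Hochberg adjusted p in limma, fitted on log2(CPM + 1) over all 13640 genes tested, was under 0.05. Of the 6 tested genes, 1 was called higher and 2 lower, in a comparison that called 60.8% of all genes tested, 25.5% higher and 35.3% lower. The 3 calls among 6 are near the share over all genes, and the median log2 fold change of the 6 was 0.03, against -0.07 over all genes tested. The split of all calls, 3482 higher and 4817 lower, was 4342 higher and 3959 lower when libraries were scaled by median-ratio factors. TEADi and GFP libraries did not overlap for 65.8% of all genes tested.

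**Figure D1:**
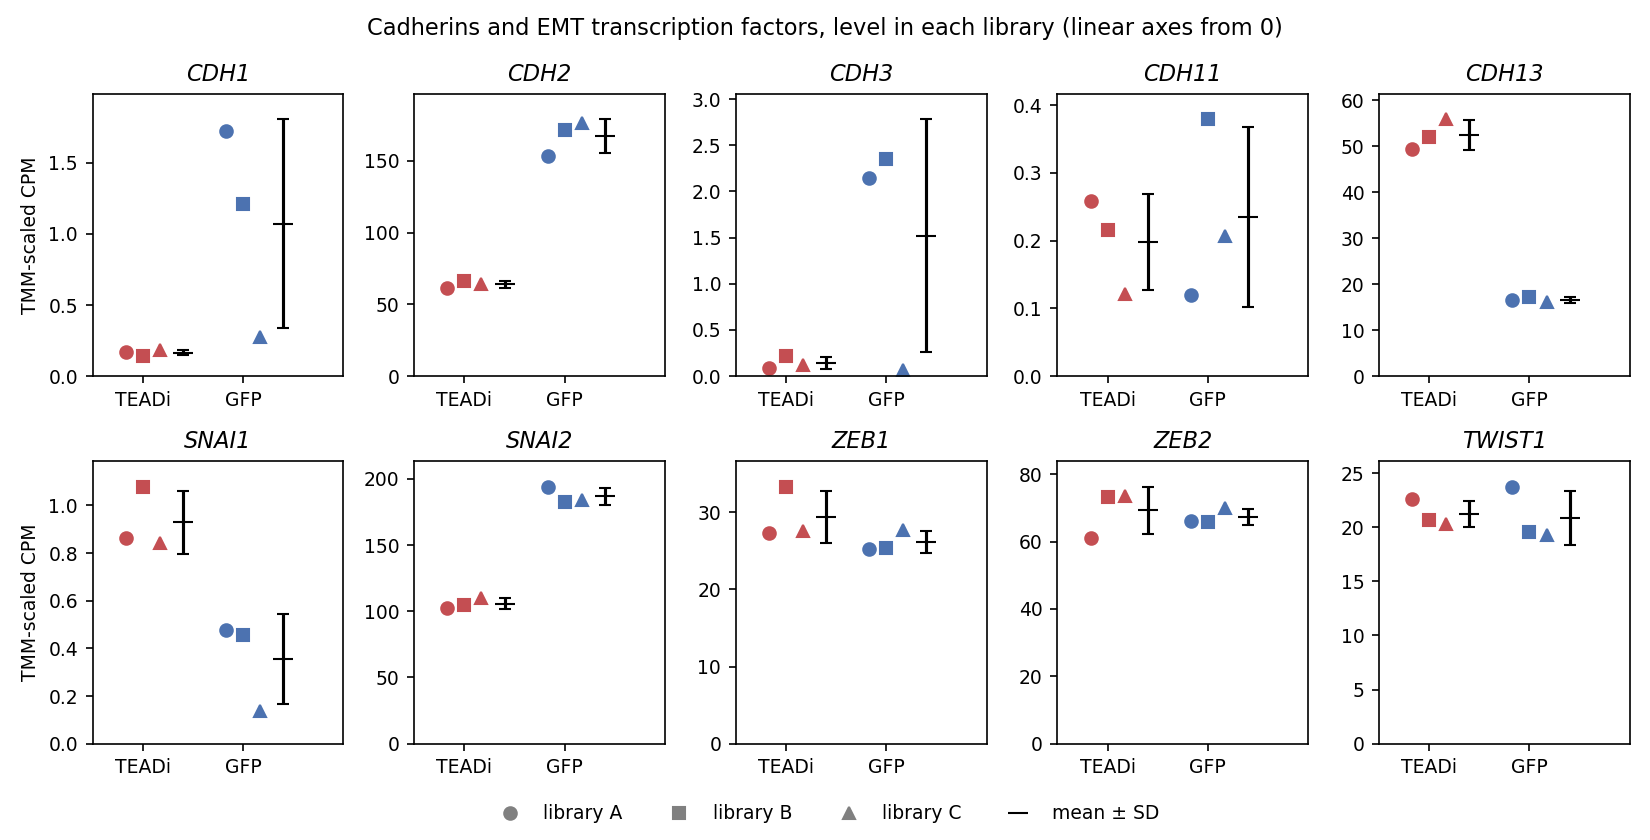
Level of each of the 10 genes in every library, in TMM-scaled CPM on linear axes that start at 0 and differ between panels; red points are TEADi libraries, blue points GFP libraries, marker shapes the library letters, and bars the mean ± SD of 3. CDH13 was above every GFP library in TEADi cells, CDH2 and SNAI2 were below, and CDH1 and CDH3 were high in GFP libraries A and B alone.

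N-cadherin, the cadherin of neural and mesenchymal cells, had the largest fall among the 6 tested genes. CDH2 (chromosome 18, 25530930 to 25757410, hg19, minus strand) had 61.4, 66.1 and 64.5 CPM in TEADi libraries A to C, against 154, 171 and 176 CPM in GFP libraries A to C. Every TEADi library lay well below every GFP library. Its mean was 64.0 ± 2.39 CPM in TEADi cells and 167 ± 11.9 CPM in GFP cells (SD, n = 3 each), a 2.61-fold lower level. The fitted log2 fold change was -1.37 ± 0.07 (SE; limma, adjusted p = 4.8e-11), with a 95% interval from -1.52 to -1.22. Across 18 other settings and subsets of libraries it stayed between -1.45 and -1.26 and was called in each of the 18.

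T-cadherin, encoded by CDH13, moved the other way. It lacks the cytoplasmic tail that ties classical cadherins to catenins and is held in the membrane by a glycosylphosphatidylinositol anchor. CDH13 (chromosome 16, 82660408 to 83830204, hg19, plus strand) had 49.5, 52.1 and 55.9 CPM in TEADi libraries A to C, against 16.5, 17.2 and 16.1 CPM in GFP libraries A to C. The 3 TEADi libraries all lay above the 3 GFP libraries, with little spread in either group. The mean was 52.5 ± 3.22 CPM in TEADi cells and 16.6 ± 0.579 CPM in GFP cells (SD, n = 3 each), a 3.17-fold higher level. Its fitted log2 fold change was 1.60 ± 0.08 (SE; limma, adjusted p = 4.9e-11), with a 95% interval from 1.43 to 1.78, and it was called in each of the 18 other settings, between 1.41 and 1.70. RP11-22H5.2, which overlaps CDH13, was at or under 0.298 CPM in all 6 libraries.

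The ratio of CDH13 to CDH2 within a library does not depend on how libraries are scaled. It was 0.806, 0.789 and 0.866 in TEADi libraries A to C, against 0.107, 0.1004 and 0.0911 in GFP libraries A to C. The groups did not overlap, and the ratio was 8.25-fold higher in TEADi cells (log2 difference 3.04, two-sided exact permutation p = 0.1, the smallest that 3 libraries against 3 allow). On the CPM scale CDH13 thus stood a little under CDH2 in TEADi libraries and far under it in GFP libraries.

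E-cadherin was close to the lowest recorded value in most libraries. CDH1 (chromosome 16, 68771128 to 68869451, hg19, plus strand) had 0.173, 0.144 and 0.181 CPM in TEADi libraries A to C, against 1.73, 1.21 and 0.276 CPM in GFP libraries A to C. In multiples of the smallest value these were 2, 2 and 3 in TEADi libraries and 29, 16 and 4 in GFP libraries. The groups did not overlap, but GFP library C lay much nearer to the TEADi libraries than to GFP libraries A and B. CDH1 missed the filter on low values; in the fit without that filter its log2 fold change was -0.76 ± 0.24 (SE; limma, adjusted p = 0.031), where 43.0% of 19437 genes were called. Without GFP libraries A and B the difference was -0.13. In the authors' deposited table its ratio of TEADi to GFP was 0.155 with a false discovery rate (FDR) of 2.9e-04, in a table where 43.4% of 19891 genes had an FDR under 0.05.

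P-cadherin, the cadherin of basal epithelial cells, is encoded by CDH3, the neighbour of CDH1 on chromosome 16 (68670092 to 68756519, hg19, plus strand). CDH3 had 0.0863, 0.216 and 0.121 CPM in TEADi libraries A to C, against 2.14, 2.35 and 0.0690 CPM in GFP libraries A to C. GFP libraries A and B were high at 36 and 31 multiples of the smallest value. GFP library C was at 1 multiple, against 1, 3 and 2 multiples in TEADi libraries A to C. The groups overlapped, and in the fit without the filter the log2 fold change was -0.98 ± 0.38 (SE; limma, adjusted p = 0.069), and 0.09 without GFP libraries A and B. The authors' deposited table gave CDH3 an FDR of 0.0366.

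CDH1 and CDH3 shared this split of the GFP libraries with few other genes. Among 13246 genes with a mean of at least 1 CPM in GFP libraries A and B, 12 (0.0906%) were at least 4-fold higher in each of these 2 libraries than in each of the other 4, a count made after the values were seen. Besides CDH1 and CDH3 they were KRT5, KRT14, KRT17, KRT19, COL17A1, ESRP1, SPINT2, MAL2, BST2 and MAGEA4, among them KRT5, KRT14 and KRT19 of the 8 epithelial markers looked at, a list that also holds CDH1 itself. KRT5 had 0.173, 0.216 and 0.302 CPM in TEADi libraries A to C, against 21.7, 17.2 and 0.414 CPM in GFP libraries A to C. The 8 epithelial markers summed to 165, 164 and 174 CPM in TEADi libraries A to C and to 345, 309 and 270 CPM in GFP libraries A to C, most of it KRT8 and KRT18, and of the 4 markers tested 3 fell and 1 was not called. In such bulk samples, fewer cells of a kind and less RNA per cell cannot be told apart. The part of cell composition in the CDH1 and CDH3 values was not tested.

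**Figure D2:**
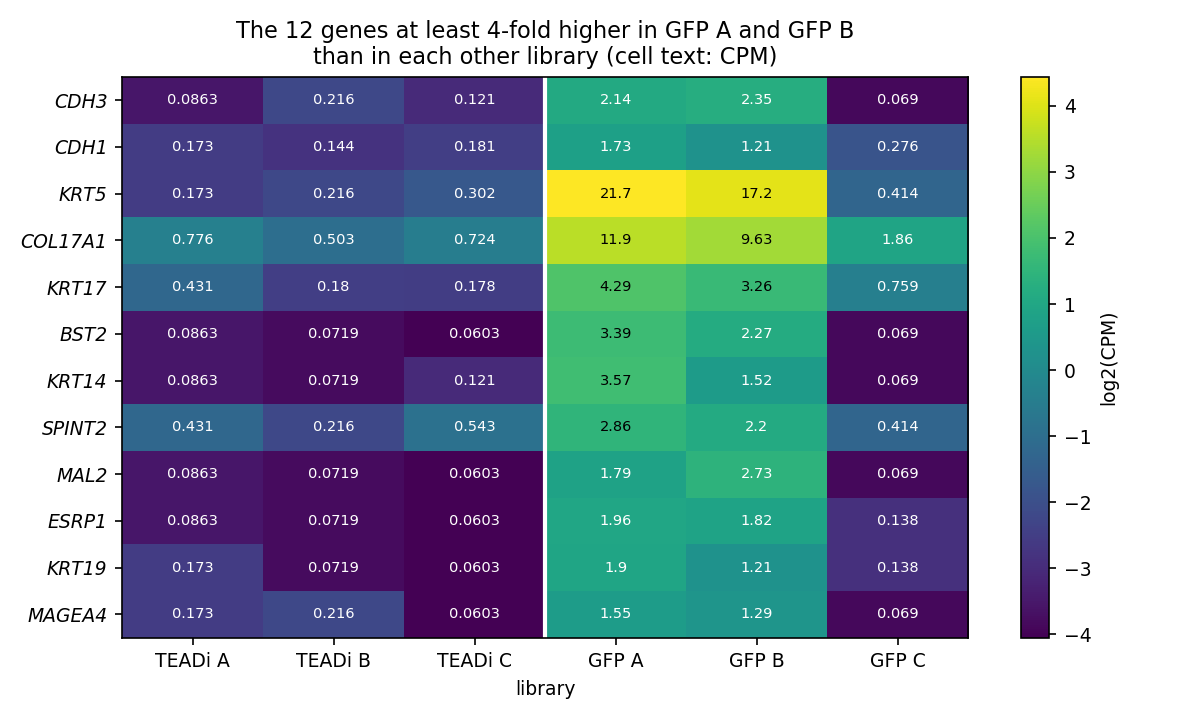
The 12 genes at least 4-fold higher in GFP libraries A and B than in each of the other 4 libraries, with the CPM of each library printed in its cell and colour on a log scale. TEADi libraries stand left of GFP libraries, and GFP library C resembles the TEADi columns for CDH1, CDH3, KRT5 and KRT14.

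OB-cadherin, encoded by CDH11 and known from osteoblasts and mesenchymal cells, was at 2 to 5 multiples of the smallest value in the 6 libraries. CDH11 (chromosome 16, 64977656 to 65160015, hg19, minus strand) had 0.259, 0.216 and 0.121 CPM in TEADi libraries A to C, against 0.119, 0.379 and 0.207 CPM in GFP libraries A to C. The groups overlapped fully, and at this depth a difference was not detectable (log2 fold change without the filter -0.04 ± 0.09, SE; limma, adjusted p = 0.77).

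Because CDH1 was so low, the CDH2 to CDH1 ratio that is often read in EMT rested on a handful of reads. It was 356, 459.5 and 357 in TEADi libraries A to C, against 89.0, 141 and 639.5 in GFP libraries A to C. GFP library C had the highest ratio of all, GFP libraries A and B the lowest, and the groups overlapped (log2 difference 0.95, two-sided exact permutation p = 0.4). With 1 CPM added to each gene the difference was -0.61, of the opposite sign, so no direction was given to it.

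Among the transcription factors, SNAI2 was called and moved down. SNAI2 encodes SLUG, a zinc-finger repressor of CDH1 that also marks basal and progenitor cells of stratified epithelium. SNAI2 (chromosome 8, 49830249 to 49834299, hg19, minus strand) had 102, 105 and 110 CPM in TEADi libraries A to C, against 194, 183 and 184 CPM in GFP libraries A to C. The TEADi libraries lay close together and all below the GFP libraries, which lay close together too. The mean was 106 ± 4.18 CPM in TEADi cells and 187 ± 6.29 CPM in GFP cells (SD, n = 3 each), 1.77-fold lower. The fitted log2 fold change was -0.81 ± 0.06 (SE; limma, adjusted p = 1.1e-08), with a 95% interval from -0.95 to -0.68, and in the 18 other settings it was called each time, between -0.84 and -0.71.

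SNAI1, which encodes SNAIL, the closest relative of SLUG among these genes, was low and stood higher in TEADi libraries. SNAI1 (chromosome 20, 48599536 to 48605423, hg19, plus strand) had 0.863, 1.08 and 0.844 CPM in TEADi libraries A to C, against 0.476, 0.455 and 0.138 CPM in GFP libraries A to C. These were 10, 15 and 14 multiples of the smallest value in TEADi libraries and 8, 6 and 2 in GFP libraries, and the groups did not overlap. SNAI1 missed the filter on low values, and in the fit without it the log2 fold change was 0.52 ± 0.12 (SE; limma, adjusted p = 0.00842). Its mean was 0.929 ± 0.130 CPM in TEADi cells and 0.356 ± 0.189 CPM in GFP cells (SD, n = 3 each), and the authors' deposited table gave an FDR of 0.00992. The size of the fitted change followed the constant added before the logarithm, from 0.15 with 5 CPM added to 1.27 with 0.1 CPM added.

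SNAI2 was the more abundant SNAIL-family transcript in both groups. The SNAI2 to SNAI1 ratio was 118.5, 97.4 and 131 in TEADi libraries A to C, against 408, 401 and 1335.5 in GFP libraries A to C. All TEADi libraries lay below all GFP libraries, and GFP library C, where SNAI1 was at 2 multiples, stood far above the others. The log2 difference was -2.39, or 5.25-fold lower in TEADi cells (two-sided exact permutation p = 0.1, the smallest possible), and -1.33 with 1 CPM added to each gene. SNAI3, the other family member in the table, was at the smallest value in all 6 libraries.

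ZEB1, a zinc-finger and homeodomain repressor of CDH1 and of the miR-200 family, was not called. ZEB1 (chromosome 10, 31607424 to 31818742, hg19, plus strand) had 27.3, 33.3 and 27.6 CPM in TEADi libraries A to C, against 25.2, 25.3 and 27.7 CPM in GFP libraries A to C. TEADi library B was the highest of the 6, and the other TEADi libraries lay within the range of the GFP libraries. The log2 fold change was 0.16 ± 0.09 (SE; limma, adjusted p = 0.139), with a 95% interval from -0.03 to 0.36, that is from 0.977-fold to 1.28-fold. ZEB1 was called higher under 3 other scalings, with a log2 fold change of 0.24 with equal library totals (limma, adjusted p = 0.0341), 0.26 with median-ratio factors (adjusted p = 0.0242) and 0.23 with quantile normalization (adjusted p = 0.041).

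Its antisense neighbour ZEB1-AS1 (chromosome 10, 31495207 to 31609376, hg19, minus strand) overlaps the start of ZEB1, and the use of strand in counting is not given in the sources used here. ZEB1-AS1 had 1.73, 1.94 and 2.11 CPM in TEADi libraries A to C, against 2.62, 3.87 and 4.62 CPM in GFP libraries A to C. It fell in TEADi cells with a log2 fold change of -0.66 ± 0.17 (SE; limma, adjusted p = 0.00275). In GFP library C, where it was highest, its 4.62 CPM stood beside 27.7 CPM for ZEB1.

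ZEB2, the other ZEB repressor, did not differ beyond the spread of the libraries. ZEB2 (chromosome 2, 145141648 to 145282147, hg19, minus strand) had 61.2, 73.2 and 73.5 CPM in TEADi libraries A to C, against 66.0, 65.7 and 70.0 CPM in GFP libraries A to C. TEADi libraries took both the lowest and the highest places, with the GFP libraries between them. The log2 fold change was 0.04 ± 0.08 (SE; limma, adjusted p = 0.694), and its 95% interval ran from 0.915-fold to 1.15-fold. The ZEB2 to ZEB1 ratio was 2.24, 2.20 and 2.67 in TEADi libraries A to C, against 2.62, 2.60 and 2.52 in GFP libraries A to C, with overlapping groups (two-sided exact permutation p = 0.4).

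TWIST1, a basic helix-loop-helix factor known for activating CDH2 in EMT, was also not called. TWIST1 (chromosome 7, 19060614 to 19157295, hg19, minus strand) had 22.6, 20.7 and 20.3 CPM in TEADi libraries A to C, against 23.8, 19.6 and 19.3 CPM in GFP libraries A to C. GFP libraries held both the highest and the lowest values. The log2 fold change was 0.03 ± 0.10 (SE; limma, adjusted p = 0.83), with a 95% interval from 0.881-fold to 1.18-fold. TWIST2, its relative, was under the filter at 0.518, 0.3596 and 0.844 CPM in TEADi libraries A to C, against 0.0595, 0.152 and 0.345 CPM in GFP libraries A to C.

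The balance between ZEB1 and SNAI2 moved with the fall of SNAI2. The ZEB1 to SNAI2 ratio was 0.268, 0.317 and 0.250 in TEADi libraries A to C, against 0.130, 0.139 and 0.151 in GFP libraries A to C. The groups did not overlap, and the ratio was 1.98-fold higher in TEADi cells (log2 difference 0.99, two-sided exact permutation p = 0.1, the smallest possible).

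**Figure D3:**
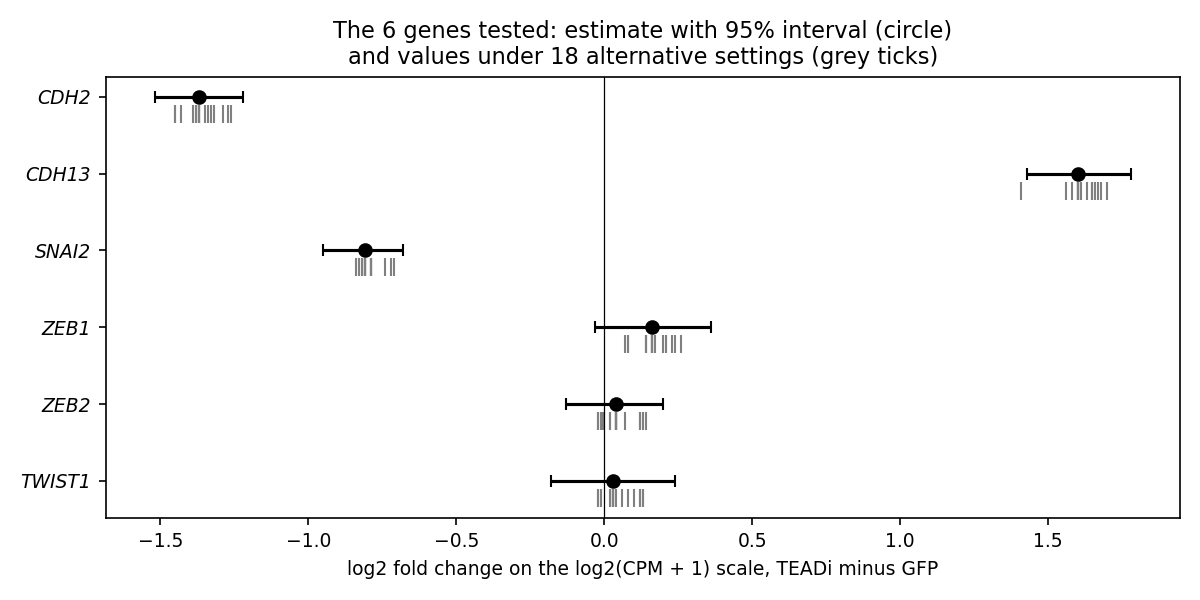
Fitted log2 fold change of TEADi over GFP with its 95% interval for the 6 tested genes (circles and bars), from limma on log2(CPM + 1), and its value under each of 18 other settings (grey ticks). The intervals of CDH13, CDH2 and SNAI2 exclude 0, and those of ZEB1, ZEB2 and TWIST1 include it.

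**Figure D4:**
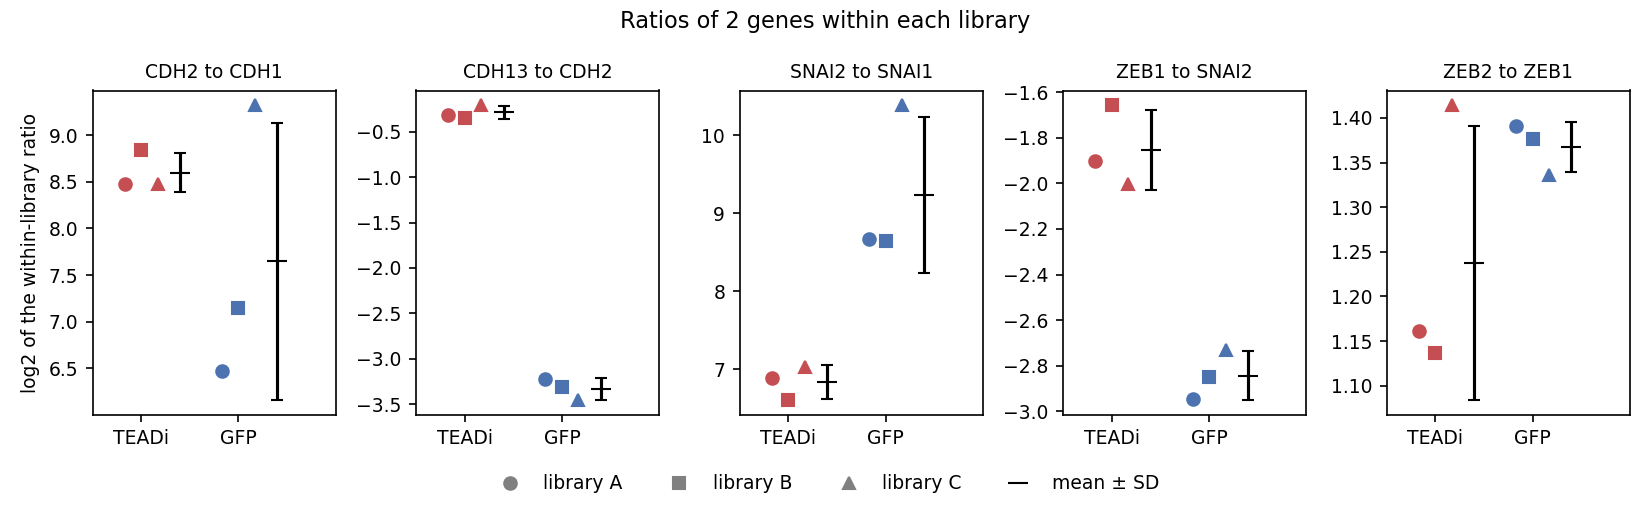
Ratio of CPM of 2 genes within each library on a log2 axis, with TEADi libraries left of GFP libraries and bars for the mean ± SD of 3. The groups are apart for CDH13 to CDH2, SNAI2 to SNAI1 and ZEB1 to SNAI2, and overlap for CDH2 to CDH1 and ZEB2 to ZEB1.

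Levels were compared between genes per kilobase of exon, since longer transcripts give more reads. SNAI2 was the most abundant of the 10 in both groups, with 43.6 ± 1.72 CPM per kilobase in TEADi cells and 77.0 ± 2.59 in GFP cells (SD, n = 3 each). CDH2 followed, with 14.4 ± 0.537 CPM per kilobase in TEADi cells and 37.6 ± 2.68 in GFP cells, and then TWIST1, with 12.7 ± 0.729 in TEADi cells and 12.5 ± 1.50 in GFP cells. In TEADi cells CDH2 stood just above TWIST1, whereas in GFP cells it stood well apart from both of its neighbours. The TWIST1 entry that the authors counted runs from 19060614 to 19157295 on chromosome 7. Whether it holds exons beyond the 1666 bases used here is not known, so the place of TWIST1 is uncertain.

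Below TWIST1 the order of mean levels on this scale differed between the groups. In TEADi cells CDH13 at 5.43 ± 0.333, ZEB2 at 5.19 ± 0.527 and ZEB1 at 4.57 ± 0.525 CPM per kilobase overlapped in range. In GFP cells ZEB2 at 5.03 ± 0.178 and ZEB1 at 4.05 ± 0.222 CPM per kilobase did not overlap, and CDH13 at 1.72 ± 0.0599 lay below both. SNAI1 had 0.551 ± 0.0774 CPM per kilobase in TEADi cells and 0.211 ± 0.112 in GFP cells, where its range overlapped those of CDH1 and CDH3. The lowest places were held by CDH1 at 0.0333 ± 0.00391, CDH11 at 0.0282 ± 0.0100 and CDH3 at 0.0280 ± 0.0133 CPM per kilobase in TEADi cells. In GFP cells CDH11 had the lowest mean, 0.0334 ± 0.0188 CPM per kilobase, within the range of CDH3, which ran from 0.0137 to 0.468.

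Genes with profiles most like that of CDH2 over the 6 libraries, by the root mean square difference of log2(CPM + 1) from the GFP mean, were PLEKHA7 (0.044), a protein of the adherens junction, MYOF (0.053), a membrane-repair protein, and UGCG (0.059), a glucosylceramide synthase. PLEKHA7 averaged 46.9 ± 1.82 CPM in TEADi cells and 122 ± 2.72 CPM in GFP cells (SD, n = 3 each). For SNAI2 they were SHMT1 (0.028), an enzyme of folate metabolism, EIF3M (0.029), a translation initiation factor subunit, and PPM1G (0.030), a protein phosphatase. The search covered 9248 genes with a mean of at least 10 CPM.

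Among other cadherins more rose than fell. Of 28 in the table, 14 were tested, of which 8 rose, 2 fell and 4 were not called. Their median log2 fold change was 0.52, against -0.07 over all genes, of which 25.5% rose and 35.3% fell. CLSTN2, among the rises, passed the filter on low values through the TEADi libraries alone. DCHS1, also among the rises, needed the TEADi libraries to pass it, with 1.13, 0.910 and 0.896 CPM in GFP libraries A to C. CDH24 was the only CDH gene that rose, beside calsyntenins, CELSR genes and DCHS genes. CDH18 fell, and CDH8 and CDH12 were not called. The rises included CLSTN3, a synaptic calsyntenin, at 39.6 ± 2.14 CPM in TEADi cells and 8.13 ± 2.22 CPM in GFP cells (log2 fold change 2.18; limma, adjusted p = 1.0e-09), and CELSR3, a cadherin of planar cell polarity, at 91.1 ± 1.52 CPM in TEADi cells and 43.6 ± 9.13 CPM in GFP cells (1.07; adjusted p = 3.5e-07). CDH24, a classical cadherin, and CLSTN1 rose less, by 0.73 and 0.40 on the log2 scale, and CLSTN1 overlaps PIK3CD, whose level was 32.8% of its own.

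The catenins and nectins that sit with cadherins at the junction moved in both directions. Of 18 tested, 6 rose, 6 fell and 6 were not called (median log2 fold change -0.01), shares near the 25.5% higher and 35.3% lower of all genes. CTNNAL1, an alpha-catenin relative, averaged 60.0 ± 2.18 CPM in TEADi cells and 161 ± 16.0 CPM in GFP cells (-1.41; limma, adjusted p = 7.5e-11), and PKP4, a plakophilin, fell too (-1.03). CTNNBIP1, an inhibitor of beta-catenin, and PVRL4, a nectin, rose (0.78 and 1.17); PVRL4 passed the filter on low values through the TEADi libraries alone. CTNNB1, beta-catenin itself, was at 413 ± 12.1 CPM in TEADi cells and 398 ± 25.9 CPM in GFP cells and was not called (limma, adjusted p = 0.517).

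Of 18 other EMT transcription factors tested, 4 rose, 9 fell and 5 were not called (median log2 fold change -0.25), where over all genes falls also outnumbered rises (35.3% and 25.5%). HMGA2, a chromatin protein known to activate SNAI1, averaged 406 ± 17.2 CPM in TEADi cells and 125 ± 10.9 CPM in GFP cells (1.69; limma, adjusted p = 4.0e-12). FOXQ1 and FOXC2, forkhead factors known from EMT, rose by 1.79 and 1.76 on the log2 scale, and ETS1 fell by 1.15. Of 21 corepressors and cofactors of the SNAIL and ZEB proteins, 2 rose, 10 fell and 9 were not called (median -0.14), and 4 rose with equal totals, median-ratio factors or quantile normalization, with 10 falls each time. AJUBA, a LIM protein that binds SNAIL and is itself part of Hippo signalling, averaged 41.2 ± 1.89 CPM in TEADi cells and 213 ± 6.43 CPM in GFP cells (-2.34; limma, adjusted p = 1.2e-14). HDAC2, CTBP1 and KDM1A, repressor enzymes and a corepressor, fell by 0.59, 0.54 and 0.45 on the log2 scale.

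Epithelial factors, among them targets that SNAIL and ZEB proteins repress, were mostly too low to test. Of 25 in the table, 8 were tested, of which 1 rose, 5 fell and 2 were not called (median log2 fold change -0.53). Over all genes tested 25.5% rose and 35.3% fell (median -0.07), and 8 genes are few for a comparison of shares. AP1M2 and ESRP2 passed the filter on low values through the GFP libraries alone. ELF3 (0.345, 1.22 and 0.603 CPM in TEADi libraries A to C) and CDS1 (0.949, 2.37 and 0.844 CPM), both among the falls, also needed the GFP libraries to pass it. SPINT1, which rose, needed the TEADi libraries, with 1.37, 0.607 and 0.207 CPM in GFP libraries A to C. The filter thus had a part in the direction of this count. With GFP libraries A and B left out and the same 8 genes tested, 2 fell and 2 rose. AP1M2, an epithelial sorting adaptor, averaged 0.760 ± 0.0354 CPM in TEADi cells and 11.6 ± 0.610 CPM in GFP cells (-2.84; limma, adjusted p = 1.6e-11), and with GFP library C as the only GFP library its log2 fold change was -2.82. ELF3 and ESRP2, an epithelial transcription factor and a splicing factor, had log2 fold changes of -1.15 and -0.75, against -0.73 and -0.43 with GFP library C alone, and SPINT1, a protease inhibitor, rose by 0.77. OVOL1, OVOL2 and CRB3 were at or under 3 multiples of the smallest value in all 6 libraries.

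Of 25 mesenchymal genes tested, 15 were called higher in TEADi cells, 6 lower and 4 not at all (median log2 fold change 0.52), beside 25.5% higher and 35.3% lower over all genes. Of the 25, ACTA2, MMP9 and THY1 passed the filter through the TEADi libraries alone. ITGA5, a fibronectin receptor chain, averaged 1348 ± 59.1 CPM in TEADi cells and 287 ± 38.0 CPM in GFP cells (2.24; limma, adjusted p = 1.5e-12), and TGFB1, a cytokine that induces EMT, rose by 1.39. TGFB2 averaged 14.5 ± 0.954 CPM in TEADi cells and 111 ± 10.1 CPM in GFP cells (-2.86; limma, adjusted p = 2.2e-14), and AXL, a receptor kinase and known YAP target, fell by 1.76. Of 8 fibroblast markers 4 are on the same list. These markers had a summed level of 1199.6 to 1267.5 CPM in TEADi libraries and of 542 to 706 CPM in GFP libraries, with 5 of 7 tested called higher and 1 lower. DCN, a fibroblast proteoglycan, averaged 675 ± 19.5 CPM in TEADi cells and 54.5 ± 5.57 CPM in GFP cells, and made up most of the difference between these sums. COL1A1, the 1 marker called lower, fell by 0.56 on the log2 scale, and COL1A2 was not called (-0.01). The part of such markers in the mesenchymal counts was not tested.

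Of 22 genes tested that set the stability of SNAIL proteins, 3 were called higher, 6 lower and 13 not at all (median log2 fold change -0.04). Over all genes 25.5% were higher and 35.3% lower. With quantile normalization 5 of the 22 were higher and 3 lower. FBXO45, a ubiquitin ligase subunit, and PAK1, a kinase that phosphorylates SNAIL, fell by 0.54 and 0.29 on the log2 scale, and ATM, a kinase of the DNA damage response, and FBXO11, another ligase subunit, rose by 0.47 and 0.30. Genes that cut, sort or phosphorylate cadherins were called higher in 5 and lower in 8 of 21 (median -0.00), shares near those over all genes, and in 7 and 6 with equal library totals. Of these, NCSTN, which encodes nicastrin, rose by 0.73 on the log2 scale, and PTPRF, a receptor phosphatase, averaged 128 ± 7.16 CPM in TEADi cells and 247 ± 24.9 CPM in GFP cells (-0.94; limma, adjusted p = 1.8e-08). Over all 8 lists, 44 of 147 tested genes rose, 52 fell and 51 were not called (median log2 fold change -0.03), near the shares over all genes (25.5% higher and 35.3% lower), and with equal library totals 51 rose and 46 fell. Of the list genes named here, ATM, CTBP1, CTNNAL1, ELF3, ESRP2, FBXO11, FBXO45, NCSTN and TGFB1 also overlap another gene with at least 10% of their level, so that without knowledge of strand in counting their values are uncertain. For ESRP2 and NCSTN the strongest such gene stood at 4070% and 312% of their level, over 149 and 129 shared bases. For TGFB1 and FBXO11 it stood at 297% and 247%, over 6012 and 20786 shared bases.

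**Figure D5:**
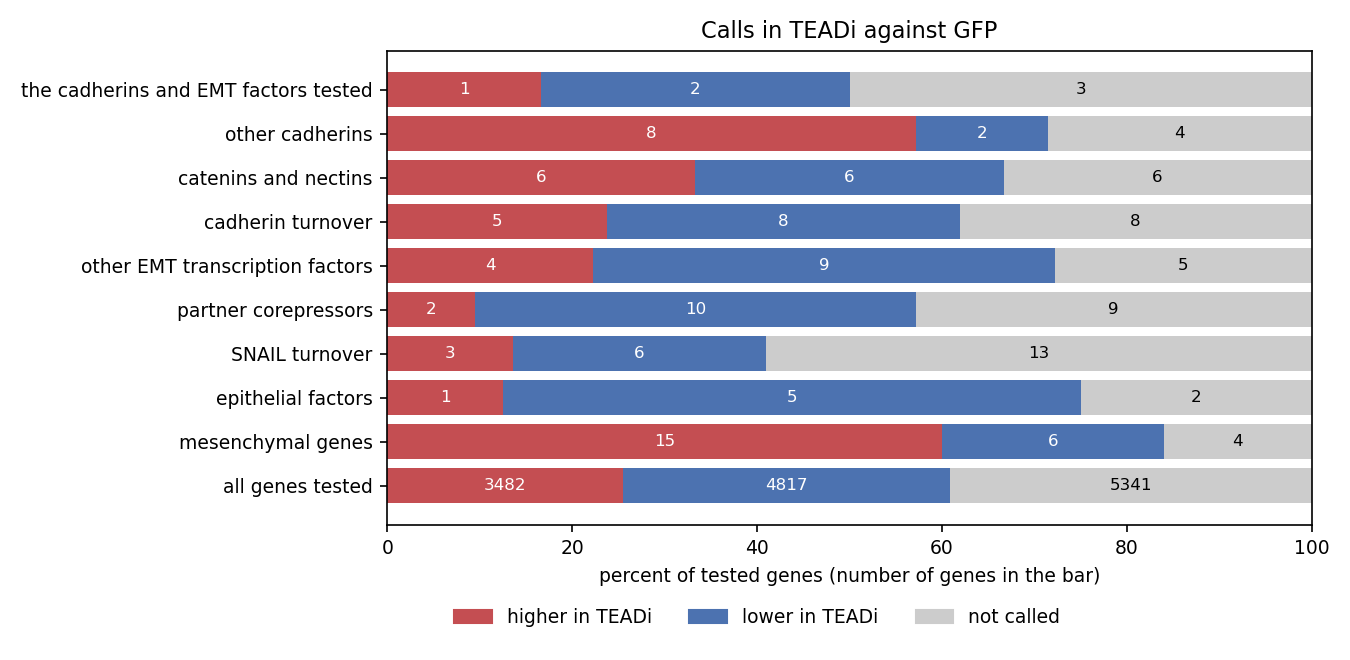
Percent of tested genes called higher in TEADi cells, called lower, and not called in each list, in the 6 cadherins and EMT factors tested and in all genes tested, by limma at an adjusted p under 0.05, with the number of genes written in each bar. Other cadherins and mesenchymal genes had more rises than falls, catenins and nectins had as many of each, and every remaining bar, that of all genes included, had more falls than rises.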

How the data were processed

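Per the labels, poly(A) libraries were made with a TruSeq mRNA kit. The build was hg19, and the tools were Partek 8.0.19.0819, STAR 2.5.1 and Trimmomatic 0.36, per the submitters' processing notes, which give no roles; the annotation, the counter and the use of strand are not given in the sources used here. The authors deposited CPM values scaled with TMM factors for the 6 libraries, and a table with a ratio of TEADi to GFP, a p-value and an adjusted p (FDR step up) per gene, from a test that the table does not name. Their table also holds a signed fold change, a score equal to the ratio or to minus its inverse, per the file headers and values, which was not used. The scale was read from the values.

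Entries sharing a symbol (421 symbols) were merged: what lay above the smallest value of the library was summed, and the smallest value was added back. Divided by the smallest value, 86.3% to 87.8% of low values came within 0.1 of a whole number, which did not allow reads to be recovered, and no count test was made. The totals came to 9589768 to 15380584 multiples, and depth in reads is unknown. Genes reaching 1 CPM in 3 or more libraries were fitted as log2(CPM + 1) with limma 3.58.1 in R 4.3.3 (lmFit, eBayes with a variance trend, two-sided, Benjamini-Hochberg over 13640 genes), without covariates; the code was tested on simulated data. Fitted log2 fold changes understate the change of low genes. Exon lengths are unions of GENCODE v29 exons, which may differ from the annotation the authors counted on. Coordinates are the authors', with the stop less 1 as the end. Printed folds are ratios of mean CPM.

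The 10 genes and all lists were chosen with earlier results of these data known. Named were the 10 genes, genes overlapping them, up to 4 called genes of each list with the smallest p, the 3 genes most like CDH2 and SNAI2, and markers. CTNNB1, SNAI3, TWIST2, KRT8, KRT18, DCN, COL1A1, COL1A2, CD68, VWF, TIE1, MITF, PMEL, OVOL1, OVOL2, CRB3, CDS1, ACTA2, MMP9, THY1, CLSTN2, DCHS1, CDH8, CDH12, CDH18 and the genes high in GFP libraries A and B were added after their values were seen. A few genes picked by this rule are not reported here. The pair CDH3 to CDH1 was not given as a ratio, because CDH3 was at the smallest value in a library. Library letters recur in both groups without being stated as pairs; deviations of same-letter libraries had correlations across genes of 0.08, -0.06 and -0.02, and the letters were not used as pairs. Other settings were pseudocounts, filters, scalings, the variance trend, merging, a replicate block and leaving out libraries; leaving out GFP libraries A and B together, with the filter reapplied or the genes tested held the same, was added after the data were seen. Tables and figures were made with matplotlib 3.10.9, scipy 1.17.1, numpy 2.4.6 and pandas 2.3.3 in Python 3.11.15.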

Additional observations from a re-analysis of the deposited data

How the results depend on the processing

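Across the settings tried, CDH2, CDH13 and SNAI2 kept their direction and their call. With each library left out in turn their log2 fold changes ranged from -1.43 to -1.33 for CDH2, from 1.56 to 1.65 for CDH13 and from -0.84 to -0.79 for SNAI2. The count of the 10 genes called higher was 2 in place of 1 without the filter (SNAI1 added, and CDH1 to those called lower, 3 in place of 2) and with equal totals, median-ratio factors and quantile normalization (ZEB1 added), where the ZEB1 log2 fold change was 0.24, 0.26 and 0.23 against 0.16, and 0.07 to 0.21 with a library left out. ZEB2, at 0.04, was at -0.004 without TEADi library B, -0.01 without TEADi library C and -0.02 without GFP libraries A and B, and ranged from -0.01 to 0.12 with a library left out. TWIST1, at 0.03, was at -0.02 without TEADi library A or GFP library C and -0.01 without GFP library B, and ranged from -0.02 to 0.12. Neither was called in any setting. With 1 CPM added before division, the log2 difference was -0.61 for the CDH2 to CDH1 ratio (0.95 as reported) and -1.33 for SNAI2 to SNAI1 (-2.39 as reported). The cause of these differences was not tested. The 3 libraries a group hold CDH1, CDH3, CDH11 and SNAI1 at few reads, which limits what can be said of them.

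With the library letter as a replicate block, 1 of the 10 genes was called higher and 2 lower, and over all genes 3489 higher and 4743 lower, against 3482 and 4817 without the block, so that the block changed no call among the tested genes of the 10. Falls among the epithelial factors numbered 5 of 8 tested, 3 of 8 without TEADi library A, 2 of 6 without GFP library A or B and 3 of 6 without GFP library C, since ESRP2 and AP1M2 then miss the filter. Without GFP libraries A and B 0 of 4 tested fell, or 2 of 8 with the genes tested held the same, where falls among cadherin turnover genes numbered 5 in place of 8. Rises among the corepressors numbered 2, but 4 with equal totals, median-ratio factors or quantile normalization, and 1 without a variance trend, without TEADi library B or C or GFP library B, or without GFP libraries A and B.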
